A study of Homo sapiens with 12 samples.

Results

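The genes described here are 51 genes of the G1/S transition and of DNA replication, taken by symbol from the 25680 gene symbols in tables of RNA sequencing counts. They comprise the replicative helicase (12 genes, counting MCM10 with it), origin licensing (5), the sliding clamp and its loader (6), DNA polymerases and primase (8), Okazaki fragment maturation (2), deoxynucleotide supply (4), G1/S regulators (6), fork protection and S phase control (4), and chromatin replication with histone mRNA processing (4). The 2 human multiple myeloma cell lines studied were U266 and MM.1S, both grown in RPMI medium with 20% fetal bovine serum. Cells of each line received the solvent DMSO or 6 µM IT848, described in the series text as an inhibitor of the transcription factor NF-kB, and all were harvested after 6 h. Each of the 4 groups held 3 libraries, 12 in all. The labels do not say whether these came from separate cultures, so p-values measure the spread between libraries, which may be technical. Each line is a single established culture model, and a difference between the lines is a difference between these 2 lines.

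Before S phase, the origin recognition complex (ORC), CDC6 and CDT1 load the ring of MCM2 to MCM7 onto origins, a step called licensing, and geminin (GMNN) blocks CDT1 afterwards. At the G1/S transition, cyclin E with CDK2 releases E2F transcription factors from the retinoblastoma protein RB, and E2F factors drive many replication genes. CDC45 and the GINS complex then turn the MCM ring into the active helicase, after which primase and polymerase alpha start new strands and the polymerases delta and epsilon extend them on the PCNA clamp. Myeloma cells are malignant plasma cells, whose entry into the cycle usually involves a cyclin D gene.

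The libraries held 50627690 to 72039748 transcript counts, summed per gene, and 18259 to 20966 genes were detected in each. All 51 genes were detected in every library and all passed the filter on low counts, as did 16782 genes overall. With only the most counted transcript of each gene, the lowest count of any of the 51 was 139 to 460 per library. The plasma cell markers (SDC1, TNFRSF17, XBP1, IRF4, PRDM1, CD38, POU2AF1 and MZB1) were all detected. Their sum in CPM (counts scaled to library size) was 3760 to 3830 under DMSO and 2580 to 2670 under IT848 in MM.1S, and 2550 to 2750 and 1870 to 1940 in U266. Summed markers of T cells (0.721 to 1.39 CPM) and myeloid cells (0.459 to 4.76 CPM) were near 0. Those of stromal cells (COL1A1, COL1A2, PDGFRB and DCN) summed to 12.1 to 15.7 CPM under DMSO and 17.6 to 22.4 CPM under IT848 in MM.1S, and to 22.2 to 26.6 and 28.7 to 34.8 CPM in U266, and their part in the results was not tested. A pair of libraries stood apart. Genes that belong to MM.1S were present at 0.896% of their MM.1S level in U266 IT848 replicate 1, against 0.118% and 0.13% in the other IT848 libraries of U266. Genes that belong to U266 were present at 0.368% of their U266 level in MM.1S DMSO replicate 2, against 0.0589% and 0.0455% in the other DMSO libraries of MM.1S. The counts of the 51 genes called for IT848 in each line, and for the difference of responses, are therefore also given without these libraries. Other counts include all 12 libraries unless stated.

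Promoter sequences of 43 of the 51 genes were found in RefSeq (GRCh38.p14, which is not the hg19 build of the count tables), each running from 250 bases before to 50 bases after the start. The core of the E2F site was searched on both strands as TT, then a pair of letters that are each C or G, then CGC, and words may overlap. It was present in 31 of the 43 promoters (72.1%), against 19.5% of the promoters of 11673 tested genes and 13.1% of all 27305 promoters. Several such words stood in 34.9% of the 43, in 2.92% of the tested genes' promoters and in 1.81% of all. The NF-Y word CCAAT was in 55.8% of the 43, 36.5% of tested genes and 35.7% of all promoters. For the CHR word TTTGAA of mitotic promoters the shares were 2.33%, 10.5% and 15.4%. Those of the E-box word CACGTG were 11.6%, 9.8% and 7.43%, and those of the NF-kB site 18.6%, 12.7% and 10.8%. A match is a description of letters, not of binding. The stretch of 130 bases before the start follows for 5 genes with E2F words there, 5′ to 3′ on the gene's strand, with the E2F words in capitals. The first 4 of these genes fell with IT848 in MM.1S, while ORC1 did not pass the test there. In MCM6 and ORC1, the capitals are a pair of overlapping words on opposite strands, and both genes carry the same run.
DTL, chr1:212035618-212035747, plus strand: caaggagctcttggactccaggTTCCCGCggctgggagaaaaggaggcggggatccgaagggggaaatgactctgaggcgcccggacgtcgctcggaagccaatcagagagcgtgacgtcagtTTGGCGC
UHRF1, chr19:4909371-4909500, plus strand: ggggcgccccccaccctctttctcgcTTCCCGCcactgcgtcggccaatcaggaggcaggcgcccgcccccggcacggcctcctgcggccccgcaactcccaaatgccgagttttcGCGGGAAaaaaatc
CHAF1A, chr19:4402510-4402639, plus strand: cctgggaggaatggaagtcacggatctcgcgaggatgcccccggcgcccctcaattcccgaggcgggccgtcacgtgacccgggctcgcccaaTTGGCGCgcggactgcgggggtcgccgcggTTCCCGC
MCM6, chr2:135876444-135876573, minus strand: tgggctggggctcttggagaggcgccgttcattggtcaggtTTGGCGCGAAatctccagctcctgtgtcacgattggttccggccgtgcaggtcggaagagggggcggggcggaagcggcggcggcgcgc
ORC1, chr1:52404424-52404553, minus strand: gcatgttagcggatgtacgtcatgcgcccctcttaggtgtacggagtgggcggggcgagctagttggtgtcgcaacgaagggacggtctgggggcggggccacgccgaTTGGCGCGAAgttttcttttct

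The question put to these data was how the genes of S phase entry and replication responded to IT848 in each line. In MM.1S, 44 of the 51 genes fell and none rose (edgeR quasi-likelihood test, adjusted p below 0.05). Over all genes tested, 19.6% fell and 18.7% rose, 38.3% in all. The median log2 fold change of the 51 genes was -0.44, and that of all genes tested was -0.010. In U266, 3 of the 51 rose and 1 fell, where 4.03% of all genes rose and 4.98% fell (9.01% in all), and the median of the 51 was -0.008. At an unadjusted p below 0.05 (edgeR) the numbers were 46 of the 51 genes in MM.1S and 10 in U266. Of all 16782 genes tested, 7840 in MM.1S and 3486 in U266 passed that threshold. Without both libraries that stood apart, 40 of the 51 genes fell in MM.1S and 2 rose in U266, with none falling there. In bulk RNA, fewer cells that express a gene and less of its RNA per cell cannot be told apart, and the share of cells in S phase was not measured.

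**Figure D1:**
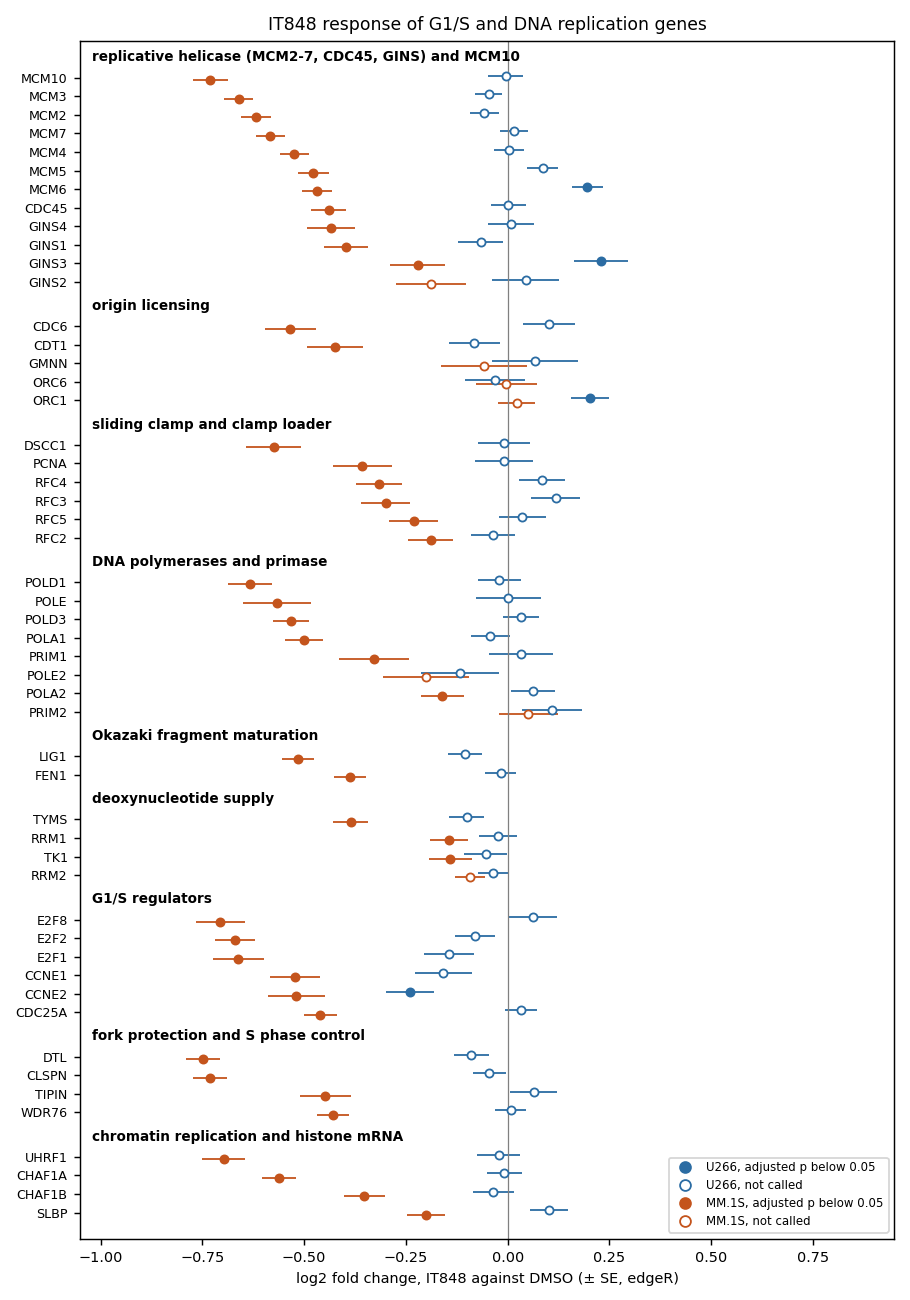
Log2 fold change of IT848 against DMSO (x axis, ± SE from edgeR) for each of the 51 genes (rows, by role) in U266 (blue) and MM.1S (orange), with filled points for an adjusted p below 0.05. The MM.1S points lie between -0.748 (DTL) and 0.051 (PRIM2), and the U266 points between -0.240 (CCNE2) and 0.229 (GINS3).

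The fall was seen in each MM.1S library given IT848. Relative to the DMSO mean of the line, the median of the 51 genes was -0.469, -0.460 and -0.431 (log2) in IT848 replicates 1, 2 and 3, and 51, 49 and 45 of the 51 lay below that mean. The corresponding medians in U266 were -0.018, -0.004 and 0.003. Summed over the 51 genes, the level was 6020 to 6163 CPM under DMSO and 4489 to 4649 CPM under IT848 in MM.1S. In U266 it was 5191 to 5210 CPM under DMSO and 5141 to 5232 CPM under IT848. The groups were thus apart in MM.1S and overlapped in U266. For 44 genes, all 3 IT848 libraries of MM.1S lay below all 3 DMSO libraries, a pattern that 24.9% of all genes tested showed. These are not quite the 44 genes called lower: RFC2 was called with overlapping groups, and RRM2 was apart but not called. In U266, the groups of 7 genes were apart and lower and those of 7 apart and higher, where 14.6% and 14.3% of all genes tested were.

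Of the 12 genes of the replicative helicase, 11 fell in MM.1S, and the median log2 fold change of the 12 was -0.474. MCM3, a subunit of the ring, had 322, 324 and 331 CPM under DMSO and 207, 208 and 203 CPM under IT848 in MM.1S. Its change there was -0.66 ± 0.035 (log2, SE; adjusted p 4.2e-09, edgeR), to 0.632 of the DMSO level, and in U266 it had 212, 206 and 214 CPM against 202, 201 and 208 CPM. The groups were apart in MM.1S and overlapped in U266. MCM2, another subunit, had 268, 269 and 278 CPM under DMSO and 172, 177 and 181 CPM under IT848 in MM.1S (-0.62 ± 0.036, adjusted p 1.4e-08, edgeR). Its U266 levels were 322, 314 and 326 CPM against 306, 306 and 313 CPM, with an adjusted p of 0.41 by the same test. Every IT848 library was thus lower than every DMSO library in both lines, and the difference passed the test in MM.1S.

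MCM6 moved in opposite directions in the lines. In U266 it had 155, 156 and 152 CPM under DMSO and 175, 175 and 179 CPM under IT848 (0.20 ± 0.037, adjusted p 0.0032, edgeR). In MM.1S it had 123, 127 and 126 CPM under DMSO and 87.5, 91.1 and 92.9 CPM under IT848 (-0.47 ± 0.037, adjusted p 3.2e-07, edgeR). The groups did not overlap in either line, and MCM6 was the only one of the 4 genes called in U266 that kept its call in each of 22 alternative analyses. GINS3, a GINS subunit, also rose in U266, from 42.3, 37.9 and 37.6 CPM to 46.3, 43 and 48.6 CPM (0.23 ± 0.066, adjusted p 0.045, edgeR). In MM.1S it fell from 44.7, 40.7 and 47.7 CPM to 37.5, 37.4 and 39.3 CPM (-0.22 ± 0.067, adjusted p 0.017). Both GINS3 calls were lost when single libraries were left out: in U266 without any of 4 of its own libraries (DMSO replicates 2 and 3, IT848 replicates 1 and 3; adjusted p up to 0.2), and in MM.1S without any of 4 of its own (DMSO replicates 1 and 3, IT848 replicates 1 and 2; adjusted p up to 0.0832). GINS2, a further GINS subunit, was the only helicase gene not called in MM.1S: it had 10.7, 10.3 and 11.3 CPM under DMSO and 8.25, 9.21 and 10.9 CPM under IT848 (-0.19 ± 0.086, adjusted p 0.1, edgeR). Its IT848 replicate 3 lay within the DMSO range, and without that library the change was -0.30 (adjusted p 0.0085). In U266, GINS2 had 13.9, 14.4 and 14.7 CPM against 14.6, 14.7 and 15 CPM, and the groups overlapped. The log2 fold changes of the 12 helicase genes in MM.1S ran from -0.731 (MCM10, named here as the end of the range) to -0.189 (GINS2), and MCM4, MCM5, MCM7, CDC45, GINS1 and GINS4 lay between, all called lower.

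Of the 5 origin licensing genes, 2 fell in MM.1S, with a median of -0.058. With the length trend of each library taken out, 3 of the 5 fell, with a median of -0.254. CDC6, which brings the MCM ring to the origin, had 36.6, 39.3 and 38.9 CPM under DMSO and 25.1, 24.9 and 29.3 CPM under IT848 in MM.1S (-0.53 ± 0.063, adjusted p 1.5e-05, edgeR). Its U266 levels were 21.9, 23 and 21.5 CPM against 23.6, 23.3 and 24.3 CPM, apart and higher under IT848, without passing the test (adjusted p 0.41, edgeR). CDT1, its partner in loading, had 21.8, 22 and 22.6 CPM under DMSO and 17.1, 17 and 15.3 CPM under IT848 in MM.1S (-0.42 ± 0.069, adjusted p 0.00025, edgeR). Both genes were lower in all 3 IT848 libraries of MM.1S. In U266, CDT1 had 62.4, 53.7 and 60.8 CPM against 56.5, 52.2 and 58.5 CPM, and the groups overlapped.

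The other licensing genes were not called in MM.1S. ORC1, the ATP-binding subunit of the origin recognition complex, had 75.7, 81.7 and 78.9 CPM under DMSO and 76.4, 82.6 and 80.8 CPM under IT848 in MM.1S (0.02 ± 0.046, adjusted p 0.74, edgeR). In U266 it rose from 80.7, 79.9 and 79.1 CPM to 90.3, 89.4 and 96.1 CPM (0.20 ± 0.046, adjusted p 0.012, edgeR), with groups apart. The U266 call was lost without DMSO replicate 3 (adjusted p 0.0571) or IT848 replicate 3 (adjusted p 0.0729). ORC6, the smallest subunit of that complex, had 47.7, 41.1 and 42.3 CPM against 39.2, 42.6 and 49.2 CPM in MM.1S and 71.7, 68.8 and 73.1 CPM against 70.3, 70.9 and 67.9 CPM in U266. GMNN, the inhibitor of CDT1, had 113, 110 and 123 CPM against 95.1, 103 and 135 CPM in MM.1S and 91.6, 105 and 90.2 CPM against 102, 96.6 and 101 CPM in U266. For both genes the groups overlapped in both lines, and IT848 replicate 3 was the highest of the IT848 libraries of MM.1S. Without that library, GMNN was called lower in MM.1S, with a log2 fold change of -0.213 and an adjusted p of 0.0342 (edgeR).

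**Figure D2:**
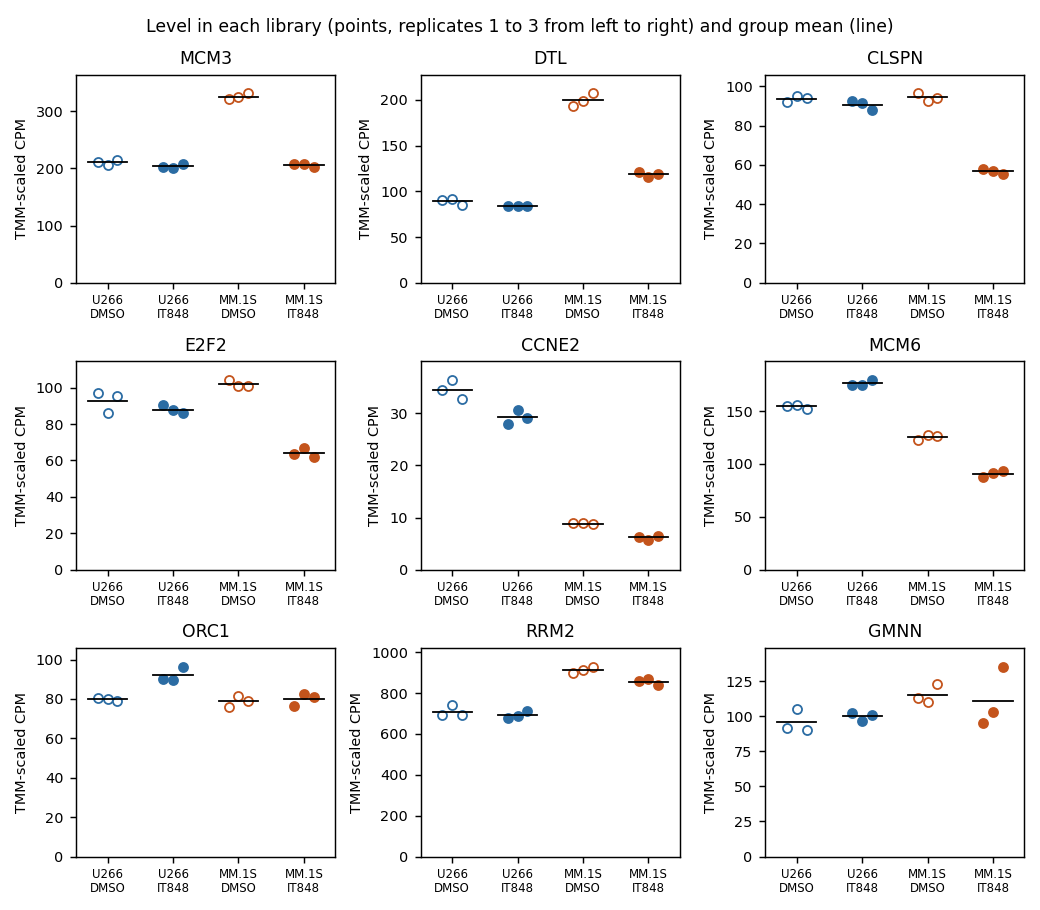
TMM-scaled CPM (y axis, from 0) of 9 of the genes in each of the 12 libraries (points) with the mean of each group (line), for U266 (blue) and MM.1S (orange) under DMSO (open) and IT848 (filled). MCM3, DTL, CLSPN, E2F2, CCNE2 and MCM6 are lower in every IT848 library of MM.1S than in any DMSO library, while ORC1 and GMNN overlap there.

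All 6 genes of the clamp and its loader fell in MM.1S, with a median of -0.308. None was called in U266, where 9.01% of all genes tested were. DSCC1, a subunit of an alternative clamp loader that acts in sister chromatid cohesion, had 23.5, 24.9 and 26.3 CPM under DMSO and 15.2, 16.5 and 18.4 CPM under IT848 in MM.1S (-0.57 ± 0.068, adjusted p 1.5e-05, edgeR). U266 cells had 34.8, 37.4 and 36.2 CPM against 34.9, 35.9 and 36.8 CPM, which overlapped. RFC4, a subunit of the main loader, had 86, 86.6 and 87 CPM under DMSO and 63.8, 68.5 and 76.4 CPM under IT848 in MM.1S (-0.32 ± 0.057, adjusted p 0.00055, edgeR). In U266 it had 92.2, 97.4 and 95 CPM against 97.3, 104 and 100 CPM. The groups of both genes were apart in MM.1S, and those of RFC4 overlapped in U266. The smallest of the 6 changes was that of RFC2 (-0.189), whose call was lost in 5 alternatives, 3 of them without MM.1S DMSO replicate 3, IT848 replicate 1 or IT848 replicate 2 (adjusted p up to 0.0969). The RFC2 groups overlapped in MM.1S.

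Of the 8 polymerase and primase genes, 6 fell in MM.1S, with a median of -0.414. None was called in U266, where 9.01% of all genes tested were. POLD1, the catalytic subunit of polymerase delta, had 148, 139 and 140 CPM under DMSO and 89, 97.3 and 89.4 CPM under IT848 in MM.1S (-0.63 ± 0.054, adjusted p 6.3e-07, edgeR). POLD3, an accessory subunit of the same polymerase, had 92.3, 92.7 and 93 CPM against 63.6, 64.2 and 64.5 CPM in MM.1S (-0.53 ± 0.044, adjusted p 4.6e-07, edgeR). Both were apart in MM.1S, and the spread between replicates of POLD3 was under 1 CPM in each MM.1S group. In U266, POLD1 had 167, 154 and 178 CPM against 162, 166 and 164 CPM, and POLD3 had 53.1, 53.9 and 57.4 CPM against 53.7, 56.6 and 58.1 CPM. Neither pair of groups was apart there.

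POLA1, the catalytic subunit of polymerase alpha, had 46.5, 45.9 and 46.2 CPM against 34.1, 31.6 and 32.3 CPM in MM.1S (-0.50 ± 0.046, adjusted p 1.3e-06, edgeR), and 21.9, 22.9 and 22.3 CPM against 22.1, 21.1 and 22 CPM in U266. PRIM1, the catalytic primase subunit, had 14.7, 15.6 and 15.6 CPM against 11.6, 10.8 and 14.1 CPM in MM.1S (-0.33 ± 0.086, adjusted p 0.0078, edgeR), and 36, 40.7 and 36.8 CPM against 37, 40 and 39 CPM in U266. Both were apart in MM.1S and overlapped in U266. PRIM2, the regulatory primase subunit, had 28.8, 28 and 26 CPM against 25.4, 29.2 and 31.1 CPM in MM.1S and 22.3, 22.3 and 21.7 CPM against 22, 24.7 and 24.8 CPM in U266. POLE2, an accessory subunit of polymerase epsilon, had 10.8, 8.64 and 9.51 CPM against 7.31, 8.18 and 9.83 CPM in MM.1S and 22.8, 22.5 and 20.4 CPM against 20.7, 21 and 19 CPM in U266. The groups of PRIM2 and POLE2 overlapped in both lines, with adjusted p values in MM.1S of 0.62 and 0.15 (edgeR). Without MM.1S IT848 replicate 3, POLE2 was called lower at -0.315 (adjusted p 0.0248).

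Both genes of Okazaki fragment maturation fell in MM.1S. LIG1, the ligase that seals the fragments, had 225, 219 and 217 CPM under DMSO and 159, 156 and 147 CPM under IT848 (-0.52 ± 0.04, adjusted p 2.8e-07, edgeR). FEN1, the flap nuclease, had 90.4, 88.8 and 90 CPM against 66.9, 71 and 67.8 CPM (-0.39 ± 0.039, adjusted p 2.8e-06, edgeR). Both pairs of groups were apart. In U266, LIG1 had 138, 133 and 139 CPM against 130, 125 and 126 CPM, apart but not called (adjusted p 0.14, edgeR). FEN1 had 107, 108 and 111 CPM against 106, 107 and 109 CPM there, which overlapped.

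Of the 4 genes of deoxynucleotide supply, 3 fell in MM.1S, with a median of -0.142. Without both libraries that stood apart it was 1 of 4, TYMS. TYMS, which makes thymidylate, had 125, 128 and 133 CPM under DMSO and 92.3, 99.8 and 103 CPM under IT848 in MM.1S (-0.39 ± 0.044, adjusted p 9.6e-06, edgeR). In U266 it had 196, 197 and 198 CPM against 180, 183 and 187 CPM, apart but not called (adjusted p 0.19, edgeR). RRM1, the large subunit of ribonucleotide reductase, had 131, 135 and 142 CPM against 118, 125 and 127 CPM in MM.1S (-0.14 ± 0.046, adjusted p 0.024, edgeR) and 84.1, 85.2 and 81.4 CPM against 79.3, 85.4 and 82.1 CPM in U266. The RRM1 groups were apart in MM.1S, but the call was lost in 12 of 22 alternatives (adjusted p 0.151 without MM.1S IT848 replicate 1), and that of the thymidine kinase TK1 (adjusted p 0.049) in 17 (0.283 without that library). RRM2, the small subunit, had 897, 911 and 927 CPM against 858, 869 and 838 CPM in MM.1S (-0.09 ± 0.037, adjusted p 0.06, edgeR) and 695, 740 and 693 CPM against 677, 686 and 711 CPM in U266. Its MM.1S groups were apart by a small margin, and those of U266 overlapped.

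All 6 G1/S regulators fell in MM.1S, with a median of -0.592. E2F2, an activating E2F factor, had 104, 101 and 101 CPM under DMSO and 63.5, 66.7 and 62 CPM under IT848 in MM.1S (-0.67 ± 0.05, adjusted p 1.5e-07, edgeR). The U266 groups overlapped, with 97.1, 86.3 and 95.3 CPM against 90.3, 87.5 and 85.9 CPM. E2F8, a repressing E2F factor, had 83.4, 77.8 and 81.7 CPM against 55.1, 48.5 and 45.3 CPM in MM.1S (-0.71 ± 0.06, adjusted p 5.9e-07, edgeR). Both genes were apart and lower in MM.1S. E2F8 had 58.1, 58.9 and 59.9 CPM against 60.6, 61.7 and 62.1 CPM in U266, apart and higher but not called (adjusted p 0.64, edgeR).

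CCNE2, a cyclin E that activates CDK2, was the only one of the 51 genes called lower in both lines. It had 34.5, 36.3 and 32.8 CPM under DMSO and 27.9, 30.7 and 29.1 CPM under IT848 in U266 (-0.24 ± 0.058, adjusted p 0.016, edgeR). In MM.1S it had 8.89, 8.94 and 8.72 CPM against 6.31, 5.78 and 6.45 CPM (-0.52 ± 0.07, adjusted p 4.7e-05, edgeR). The groups were apart in both lines, and the U266 call was lost without IT848 replicate 1, the library with MM.1S reads (-0.207, adjusted p 0.0846), and without any of 3 other single U266 libraries (DMSO replicates 1 and 2 and IT848 replicate 3). CCNE1, the other cyclin E, had 18.6, 20.4 and 19.7 CPM against 13.1, 13.9 and 13.9 CPM in MM.1S (-0.52 ± 0.062, adjusted p 1.6e-05, edgeR). The U266 values were 6.92, 7.45 and 6.67 CPM against 6.25, 6.24 and 6.36 CPM, apart but not called (adjusted p 0.21, edgeR).

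All 4 genes of fork protection and S phase control fell in MM.1S, with a median of -0.589. None was called in U266, where 9.01% of all genes tested were. DTL, the substrate receptor of the ubiquitin ligase that destroys CDT1 in S phase, had 193, 199 and 207 CPM under DMSO and 121, 116 and 119 CPM under IT848 in MM.1S. This was the lowest log2 fold change of the 51 genes (-0.75 ± 0.042, adjusted p 8.4e-09, edgeR), to 0.595 of the DMSO level. CLSPN (claspin), an adaptor of the replication checkpoint kinase, had 96.3, 92.3 and 94.2 CPM against 58.1, 57.1 and 55.3 CPM in MM.1S (-0.73 ± 0.041, adjusted p 8.3e-09, edgeR). Both were apart in MM.1S by far more than the spread between replicates. In U266, DTL had 90.1, 92 and 85.2 CPM against 83.5, 84.3 and 83.6 CPM, and CLSPN had 91.8, 94.8 and 93.9 CPM against 92.5, 91.7 and 87.7 CPM. The DTL groups were apart in U266 without passing the test (adjusted p 0.25, edgeR), and those of CLSPN overlapped.

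All 4 genes of chromatin replication and histone mRNA fell in MM.1S, with a median of -0.457. CHAF1A, the large subunit of the chromatin assembly factor CAF-1, had 78.8, 76.5 and 76.8 CPM under DMSO and 54.2, 53.1 and 49.9 CPM under IT848 in MM.1S (-0.56 ± 0.042, adjusted p 1.7e-07, edgeR). UHRF1, which recruits the maintenance DNA methyltransferase to replicated DNA, had 271, 250 and 247 CPM against 162, 166 and 146 CPM in MM.1S (-0.70 ± 0.053, adjusted p 2.2e-07, edgeR). Both were apart in MM.1S. In U266, CHAF1A had 61.6, 60.2 and 61.9 CPM against 60.3, 61.1 and 61.2 CPM, and UHRF1 had 149, 146 and 156 CPM against 144, 152 and 148 CPM. Both overlapped there. SLBP, which binds histone mRNA, had the smallest fall of the 4 (-0.201).

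The response itself was then compared between the lines. The change in MM.1S minus that in U266 was called lower for 40 of the 51 genes and higher for none, with a median of -0.436. Over all genes tested, 8.94% were called lower and 8.49% higher in this comparison (17.4% in all). The genes with the lowest p were MCM3 (-0.61 ± 0.049, adjusted p 1.6e-06, edgeR), CLSPN (-0.69 ± 0.057, adjusted p 2.5e-06) and MCM6 (-0.67 ± 0.052, adjusted p 1.5e-06). All 11 helicase genes that fell in MM.1S, all 6 G1/S regulators, all 4 fork genes and all 4 chromatin genes were among the 40. For deoxynucleotide supply it was 1 of 4 genes, TYMS. Of the 40, 8 lost the call in some of 21 alternatives. CCNE2 kept it in 7 of them (adjusted p up to 0.129), PRIM1 (0.127) and RFC5 (0.134) in 8 each and PCNA (0.105) in 10. CDT1 kept it in 17, CCNE1 in 19, and GINS1 and SLBP in 20 each. Without both libraries that stood apart, 32 of the 51 genes were called lower.

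The level before treatment also differed between the lines. Under DMSO, 26 of the 51 genes were higher and 18 lower in MM.1S than in U266, with a median log2 difference of 0.134. Over all genes tested, 40.6% were higher and 42.1% lower (82.6% in all). The groups were apart and higher in MM.1S for 26 of the 51 and apart and lower for 20, where 41.6% and 43.2% of all genes tested were, so a difference between these lines was the rule. The 3 largest in favour of MM.1S were CCNE1 (1.48 ± 0.065, adjusted p 1.3e-11, edgeR), DTL (1.16 ± 0.042, adjusted p 1.3e-12) and POLA1 (1.05 ± 0.047, adjusted p 1.6e-11). The 3 largest in favour of U266 were CCNE2 (-1.96 ± 0.063, adjusted p 3.3e-13, edgeR), CDT1 (-1.42 ± 0.066, adjusted p 2.7e-11) and PRIM1 (-1.31 ± 0.082, adjusted p 8.4e-10). The lines thus differed in which cyclin E gene was more abundant. Per kilobase of transcript, CCNE1 was at 7.99 and CCNE2 at 28.1 CPM in U266 under DMSO, and at 21.8 and 7.05 CPM in MM.1S. The RNA levels of DTL and CDT1 differed in opposite directions: DTL was 2.24 times as high in MM.1S, and CDT1 was at 0.375 of its U266 level. A link between them was not tested. The catalytic subunits of polymerase alpha and of primase, POLA1 and PRIM1, also differed in opposite directions.

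**Figure D3:**
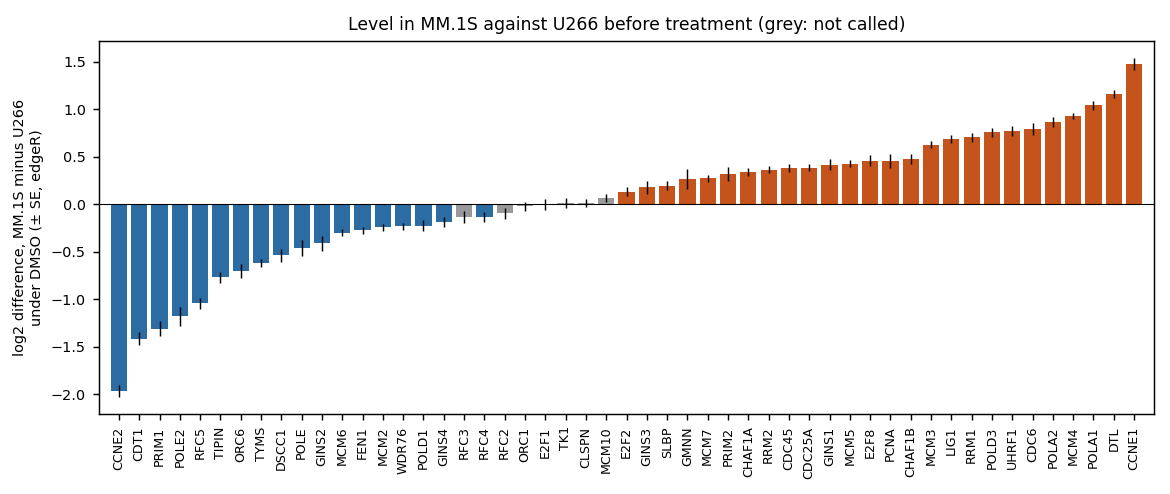
Log2 difference of MM.1S minus U266 under DMSO (y axis, ± SE from edgeR) for each of the 51 genes (x axis, sorted), higher in MM.1S in orange, higher in U266 in blue and not called in grey. The bars run from -1.963 (CCNE2) to 1.479 (CCNE1).

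Levels per kilobase of transcript allow the genes to be ranked within a line. The median of the 51 genes was 28.1 CPM per kilobase in U266 and 27.2 in MM.1S under DMSO, where the medians of all genes tested were 6.1 and 6.44. With IT848 the median of the 51 was 29 in U266 and 19 in MM.1S. TYMS was the highest of the 51 in U266 (275 under DMSO) and RRM2 in MM.1S (288). The subunits of the MCM ring, which is built with 1 of each, lay between 52.1 (MCM4) and 102 (MCM2) CPM per kilobase in U266 under DMSO. In MM.1S they lay between 71.9 (MCM6) and 117 (MCM7) under DMSO and between 52.5 (MCM6) and 78.8 (MCM7) under IT848. MCM6 was thus the lowest MCM subunit in MM.1S in both conditions. Across the 51 genes, Spearman's rank correlation between the log2 response in MM.1S and the DMSO level per kilobase was 0.03, a description over genes that share the same libraries.

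Transcript length moved with the response. Across the 51 genes, Spearman's rank correlation between length and the log2 fold change in MM.1S was -0.63, against -0.17 over all genes tested, as a description with libraries shared by all points. The median fold change (log2) was -0.316 in the shortest 17 genes (1180 to 2289 bases), -0.396 in the middle 17 and -0.566 in the longest 17 (3467 to 8484 bases). Within each library, the rank correlation between length and the deviation from the mean of its line was 0.168 to 0.451 in MM.1S DMSO and -0.484 to 0.0285 in MM.1S IT848. That mean pools both treatments. A length trend of the libraries and a response to IT848 that varies with length therefore cannot be told apart. The values with the trend taken out share this limit. With the length trend of each library taken out, 47 of the 51 genes fell in MM.1S with a median of -0.453, and the 3 length classes had medians of -0.413, -0.447 and -0.486. GINS2, GMNN and POLE2 were among the genes called lower in that analysis, and ORC1, ORC6, PRIM2 and RRM2 were not.

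**Figure D4:**
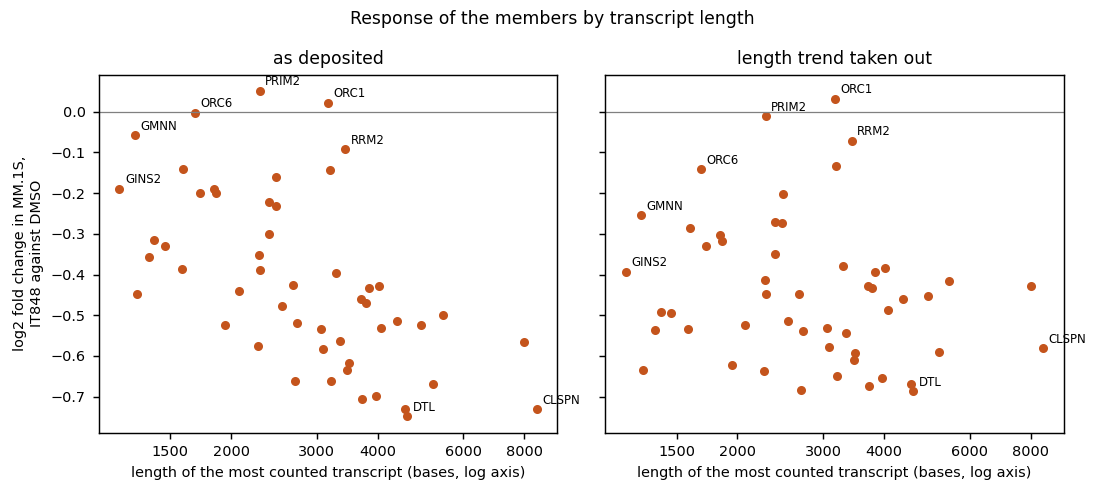
Log2 fold change in MM.1S (y axis) against the length of the most counted transcript in bases (x axis, log scale) for the 51 genes, from counts as deposited (left) and with the length trend of each library taken out (right). Short genes such as GMNN and GINS2 lie lower on the right (-0.254 and -0.393) than on the left (-0.058 and -0.189).

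Promoter words and responses were set side by side. Of the 31 genes with an E2F core, 28 fell in MM.1S, with a median of -0.425. Of the 12 without one, 8 fell, with a median of -0.294. The genes with no E2F core in this window included ORC6, GMNN, PRIM2 and RRM2, which were not called in MM.1S, and also POLD1, FEN1 and CCNE1, which fell. ORC1, shown above with the same capitals as MCM6, carried 2 E2F words and was not called in MM.1S. MCM6 carried 4, since the same pair stands again at -151 to -142 from the start, outside the stretch shown. GINS2 and POLE2 each carried 1 E2F word and were not called there either. With an NF-kB site, 7 of 8 genes fell (median -0.622), and without one 29 of 35 (-0.388). With the E-box, 4 of 5 fell (-0.562), and without it 32 of 38 (-0.391). With NF-Y, 20 of 24 fell (-0.465), and without it 16 of 19 (-0.316). These counts are small, and no test of the difference was made.

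Genes next to these in the same processes were taken from 4 lists. Of 36 other replication fork and origin genes, 21 fell and 7 rose in MM.1S, with a median of -0.238. SUPT16H, a subunit of the histone chaperone FACT, changed by -0.53 ± 0.042 (adjusted p 3.8e-07, edgeR), and TOPBP1, which helps to start replication, by -0.49 ± 0.04 (adjusted p 4.5e-07). The histone chaperone ASF1A went the other way, with 35.4, 39.3 and 39.8 CPM under DMSO and 98.7, 109 and 125 CPM under IT848 in MM.1S (1.54 ± 0.075, adjusted p 1.9e-09, edgeR). In U266 it rose from 22.6, 23.8 and 22.1 CPM to 27.9, 29.6 and 29.9 CPM (0.35 ± 0.077, adjusted p 0.0092), a call lost without DMSO replicate 1 (adjusted p 0.0502) or 3 (0.0581) of U266. ASF1A was thus higher in every IT848 library of both lines. ORC3 (0.20), RPA3 (0.47) and RNASEH2C (0.24, all log2 fold changes) also rose in MM.1S.

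Of 12 other genes of deoxynucleotide supply, 4 fell and 3 rose in MM.1S, with a median of -0.012. UNG, which removes uracil from DNA, fell (log2 fold change -0.76 ± 0.043), as did the nucleoside transporter SLC29A1 (-0.45 ± 0.041) and SAMHD1, which breaks down deoxynucleotides (-0.47 ± 0.047). RRM2B, the p53-induced small subunit of ribonucleotide reductase, rose (0.20 ± 0.064, adjusted p 0.021, edgeR), as did DCTD (0.13) and TK2 (0.15). Each call was lost in some alternatives: RRM2B in 3 (without MM.1S DMSO replicate 1 or 2 or IT848 replicate 3), TK2 in 5 (among them the same single libraries) and DCTD in 7. DCTD was at 0.037 (adjusted p 0.452) with the length trend taken out, and its call was also lost without any single MM.1S library other than IT848 replicate 1. In U266, SAMHD1 (-0.24 ± 0.05, adjusted p 0.0066, edgeR) and UNG (-0.17 ± 0.043, adjusted p 0.02, edgeR) fell as well. The U266 call of UNG was lost in 5 alternatives (adjusted p up to 0.128) and that of SAMHD1 in 1 (0.0521). Of 24 regulators of the RB and E2F pathway, 15 fell and 3 rose in MM.1S, with a median of -0.207. CCND2, a cyclin D gene known as a target of MAF in myeloma, had 406, 423 and 385 CPM under DMSO and 208, 214 and 203 CPM under IT848 in MM.1S (-0.96 ± 0.046, adjusted p 1.5e-09, edgeR), to 0.515 of the DMSO level. It also fell in U266, from 134, 127 and 129 CPM to 121, 116 and 111 CPM (-0.16 ± 0.046, adjusted p 0.037), a call lost in 8 alternatives. These included the length trend taken out (adjusted p 0.0754) and the absence of U266 DMSO replicate 1 or 3 or IT848 replicate 2 or 3 (up to 0.146). CCND1, named after its values were seen, fell in U266 from 509, 503 and 505 CPM to 384, 391 and 396 CPM (-0.373 ± 0.083, adjusted p 0.0115, edgeR). In MM.1S, CCND1 had 4.52, 6.21 and 3.81 CPM against 2.93, 2.76 and 3.07 CPM (-0.719 ± 0.135, adjusted p 0.00094). Its highest value there came from DMSO replicate 2, the library with U266 reads. CCND3 was not called in either line. CDK2, the partner of cyclin E, fell in MM.1S (-0.34 ± 0.041), while the repressor E2F6 (0.53 ± 0.057) and the CDK inhibitors CDKN2D (0.32 ± 0.083) and CDKN1C (0.64 ± 0.22) rose. The CDKN2D call was lost with the length trend taken out (0.148, adjusted p 0.192), and that of CDKN1C in 7 alternatives, among them without any single MM.1S library other than IT848 replicate 1 (adjusted p up to 0.11). The CDK inhibitors CDKN1A (-0.16 ± 0.04, adjusted p 0.0054) and CDKN1B (-0.15 ± 0.044, adjusted p 0.012, edgeR) fell, and the activator E2F3 was not called (0.02 ± 0.058, adjusted p 0.8), these 3 named after their values were seen. In U266, CDKN2D fell (-0.42 ± 0.079, adjusted p 0.0031, edgeR) and CDKN1A rose (0.17 ± 0.041, adjusted p 0.016, edgeR). CDK6 and RB1 were also named after their values were seen. CDK6 rose in U266 (0.270 ± 0.054, adjusted p 0.00513, edgeR) and fell in MM.1S (-0.263 ± 0.052, adjusted p 0.00122). RB1 fell in MM.1S (-0.262 ± 0.055, adjusted p 0.0019) and was not called in U266. Under DMSO, RB1 had a mean of 5.01 CPM in U266 and 28.4 CPM in MM.1S (2.505 ± 0.063, adjusted p 2.5e-14, edgeR). CDKN2C, the lowest point of that list, was at 0.0422 to 0.435 CPM under DMSO and 0 to 0.0883 CPM under IT848 in MM.1S. It is counted among the 15 that fell (adjusted p 0.0324, edgeR), though its groups overlapped. Its highest value came from DMSO replicate 2, the library with U266 reads, and it was at 148 to 150 CPM in U266 under DMSO.

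Genes of mitosis did not share the fall. Of 30, 15 rose and 3 fell in MM.1S, with a median of 0.167. None was called in U266, where 9.01% of all genes tested were. CCNB1 (cyclin B1) had 69.6, 75.3 and 76.5 CPM under DMSO and 92.6, 109 and 121 CPM under IT848 in MM.1S (0.54 ± 0.073, adjusted p 5.7e-05, edgeR). HMMR (0.50 ± 0.07) and CCNB2 (0.38 ± 0.059) rose as well, and MKI67 (-0.37 ± 0.071), CDC25B (-0.19 ± 0.055) and KIF11 (-0.12 ± 0.039) fell. The KIF11 call was lost in 14 alternatives (-0.039, adjusted p 0.413, with the length trend taken out), among them without any single MM.1S library other than DMSO replicate 3. That of CDC25B was lost without MM.1S IT848 replicate 3 (adjusted p 0.0758) and without both libraries that stood apart (0.0548). The change in MM.1S was called higher than that in U266 for 9 of the 30 and lower for none. With the length trend taken out, 13 of the 30 rose and 2 fell. The difference between the mitosis genes and the 51 genes was not itself tested.

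**Figure D5:**
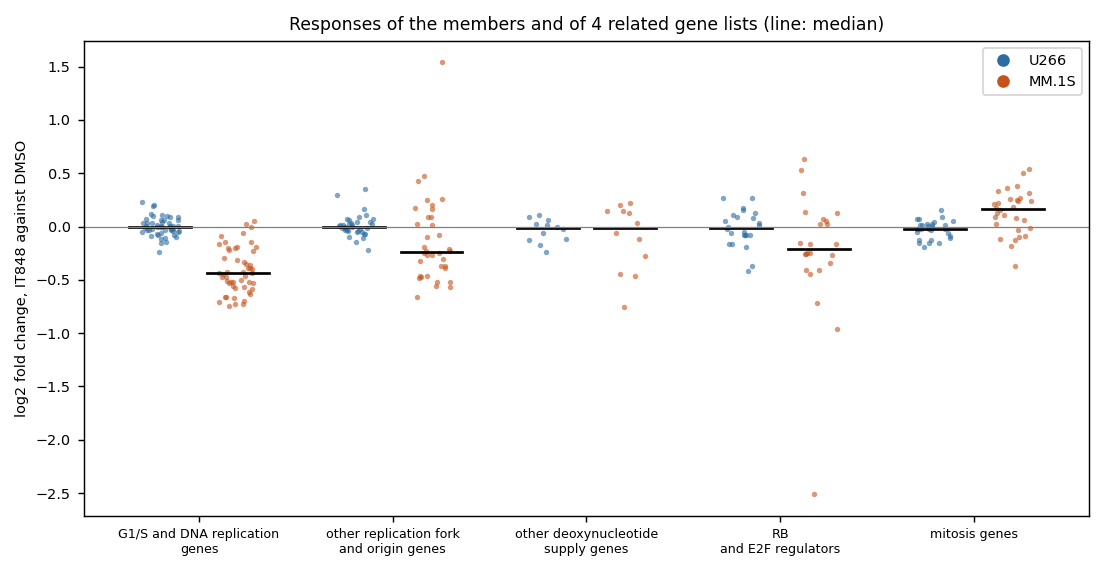
Log2 fold change of IT848 against DMSO (y axis) for the 51 genes and 4 related lists (x axis), each point a gene, in U266 (blue) and MM.1S (orange), with the median as a line. The MM.1S medians are -0.440 for the 51 genes, -0.238, -0.012 and -0.207 for the next 3 lists and 0.167 for mitosis genes, and the lowest point is CDKN2C, which is near 0 CPM in MM.1S.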

How the data were processed

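RNA of U266 and MM.1S cells was sequenced in 12 libraries, 3 per group. Per the submitters' processing notes, the authors worked on hg19 with STAR 2.5.2b after Trimmomatic 0.36 and bcl2fastq, and counted with featureCounts (Subread 1.5.2). The sources used here do not give the settings for strand, for reads with several alignments or for the annotation release. One line of the series text names exome sequencing, while the series type and library labels give RNA expression. The deposited tables list a read count, an FPKM and a TPM value for each of 51780 transcripts, per the file headers. The deposited FPKM, scaled by the authors for transcript length and depth, gave the transcript lengths. The deposited TPM values, which the authors scaled to 1000000 per library, served only as a check.

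Counts were summed per symbol. Isoforms of a gene repeat the same reads: 28 of the 51 genes have several transcripts, and in 26 of these the least counted had over 0.9 of the counts of the most counted. Overlapping genes (TYMS and ENOSF1) and copies (pseudogenes of PCNA and RRM2) can share reads. The main test was edgeR 4.0.16 (R 4.3.3; quasi-likelihood F test, robust, TMM scaling, minimum count 10) on all 12 libraries with a mean per group, Benjamini-Hochberg adjusted over 16782 genes and called below 0.05. The code was also run on simulated counts with known changes, drawn with the same spread for all genes and no length trend. Such a run checks the code and cannot vouch for the calls in these data. SE is the log2 fold change over the square root of F. Levels are TMM-scaled CPM. DESeq2 1.42.0, other scalings and filters, the most counted transcript per gene, a length correction, a replicate block, 1 line alone and left-out libraries were the alternatives. Counting error does not cover differences between cultures.

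The 51 genes, their roles and the related lists were chosen with earlier results of these data known. Genes given in every library were those with the 2 lowest p values of their role in MM.1S, those called in U266 or not called in MM.1S, the 3 largest line differences each way, and the 3 lowest p values for the difference of responses, 31 of 51 in all. In each related list, the 3 lowest p values in MM.1S and up to 4 genes called against the majority were named. Other genes are named as ends of a range, for a lost call or as regulators of the RB and E2F pathway, chosen after their values were seen. Genes used to find reads of the other line were above 20 CPM in that line and under 0.05 CPM (median) in the other group of the library's own line.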

Additional observations from a re-analysis of the deposited data

Results flagged for a closer look

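The response to IT848 differed between the lines, by the test of the difference itself (edgeR, adjusted p below 0.05), for 40 of the 51 genes. The same held for 13 of the genes named by rule from the related lists. Values are the log2 response in MM.1S minus that in U266. Among the helicase genes these were MCM2 (-0.56), MCM3 (-0.61), MCM4 (-0.53), MCM5 (-0.56), MCM6 (-0.67), MCM7 (-0.60), CDC45 (-0.44), GINS1 (-0.33), GINS3 (-0.45), GINS4 (-0.44) and MCM10 (-0.73). In origin licensing the genes were CDC6 (-0.64) and CDT1 (-0.34). The clamp and clamp loader genes were PCNA (-0.35), RFC3 (-0.42), RFC4 (-0.40), RFC5 (-0.27) and DSCC1 (-0.57). The polymerase and primase genes were POLA1 (-0.46), PRIM1 (-0.36), POLD1 (-0.61), POLD3 (-0.57) and POLE (-0.57). In Okazaki fragment maturation the genes were FEN1 (-0.37) and LIG1 (-0.41). In deoxynucleotide supply it was TYMS (-0.29). The G1/S regulators were CCNE1 (-0.36), CCNE2 (-0.28), CDC25A (-0.49), E2F1 (-0.52), E2F2 (-0.59) and E2F8 (-0.77). In fork protection and S phase control the genes were DTL (-0.66), CLSPN (-0.69), TIPIN (-0.51) and WDR76 (-0.44). In chromatin replication and histone mRNA the genes were CHAF1A (-0.55), CHAF1B (-0.32), UHRF1 (-0.68) and SLBP (-0.30). In the related lists, the response was lower in MM.1S for SUPT16H (-0.45), TOPBP1 (-0.52), UNG (-0.58), SLC29A1 (-0.32), SAMHD1 (-0.23), CCND2 (-0.79) and CDK2 (-0.37), and higher for ASF1A (1.19), E2F6 (0.40), CDKN2D (0.74), CCNB1 (0.51), HMMR (0.45) and CCNB2 (0.36). CDKN1A, named after its values were seen, also had a lower response in MM.1S (-0.33, adjusted p 0.00125, edgeR). The calls of CCNE2, PRIM1, RFC5, PCNA, CDT1, CCNE1, GINS1 and SLBP were lost in some alternatives. In the related lists, that of SAMHD1 was lost in 12 alternatives (adjusted p up to 0.0981, edgeR). That of CCNB2 was lost without both libraries that hold reads of the other line (adjusted p 0.0504, edgeR). Without both libraries that hold reads of the other line, 32 of the 51 genes passed this test.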

How the results depend on the processing

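None of the called changes of the 51 genes reversed in these alternatives. The call of 39 of the 44 genes that fell in MM.1S held in each of 22 alternatives (not RFC2, POLA2, GINS3, RRM1 and TK1), as did 1 of 4 in U266, 32 of 40 for the difference of responses and 40 of 44 between the lines (21 alternatives each for the last pair). Leaving out both libraries with reads of the other line gave 924 genes changed in U266 (1512 with them), 2 of the 51 genes there, and 1712 genes with different responses (2924 with them). Leaving out 1 library at a time gave 986 to 1827 genes in U266 and 1 to 4 of the 51, 2208 to 3871 genes for the difference of responses, and a median difference of responses of -0.441 to -0.404. With the length trend taken out, that median was -0.465. The median line difference of the 51 genes under DMSO (0.134) was 0.122 with DESeq2 size factors and with the DESeq2 Wald test, 0.076 with upper quartile scaling, 0.117 with no filter, 0.110 with a minimum count of 50, 0.103 with the length trend taken out, and 0.076 to 0.154 without single libraries. The cause of these shifts was not tested.

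With the replicate number as a block, 4388 genes differed in response, 2154 changed in U266 and 7331 in MM.1S. Same-numbered libraries of the 2 treatments correlated at 0.0599, 0.00481 and -0.00139 in U266 and at 0.117, -0.0563 and 0.1 in MM.1S, so the numbers were not taken as pairs. With 1 transcript per gene, the lowest count of the 51 genes was 139 to 460 per library, and counting error was not separated from differences between libraries.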
